A study of Canis lupus familiaris with 15 samples.

Results

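The cytosolic ribosomal protein genes were described in primary osteosarcomas of 15 pet dogs. A gene was taken as a member when its symbol in the platform annotation was RPL or RPS with a number and an optional letter A, X or Y, or was RPSA, RPLP0, RPLP1 or RPLP2. Among the probesets annotated with a single symbol, the one with the highest mean log2 signal was taken for each gene. This gave 51 members of 15115 named genes, of which 31 encode proteins of the large (60S) subunit and 20 proteins of the small (40S) subunit. Another 10 ribosomal protein genes were found only on probesets that carry several symbols and were kept apart, and 12 of the 73 ribosomal protein genes of the dog RefSeq table (assembly UU_Cfam_GSD_1.0) were on neither kind of probeset, RPS6, RPL11 and RPL38 among them.

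The tumors were removed from the limb at amputation, before any chemotherapy, and snap frozen. Total RNA of each was hybridised to 1 Affymetrix Canine 2.0 array. After amputation each dog received adjuvant doxorubicin or a platinum drug. The dogs belonged to 2 cohorts by disease free interval (DFI) after this treatment. The poor responder cohort had an interval under 100 days (DFI < 100, 8 dogs) and the good responder cohort one over 300 days (DFI > 300, 7 dogs). The DFI < 100 dogs were 3 Greyhounds, a Rottweiler, a Labrador Retriever, a Doberman, a Golden Retriever and a dog of mixed breed, 4.4 to 10.8 years old (median 8). The DFI > 300 dogs were a Greyhound, a Rottweiler, a Golden Retriever and 4 of mixed breed, 7.1 to 13.4 years old (median 10.4). By the paper's account the tumors of DFI < 100 dogs 153599, 204714 and 208911 were of the giant cell subtype. That of DFI > 300 dog 188084 was poorly differentiated, and the rest were osteoblastic. Giant cell tumors were thus in the DFI < 100 cohort only, so this subtype and cohort cannot be fully told apart. Each dog was 1 animal and 1 array, so the spread between dogs holds both the animal and the measurement. A piece of tumor holds bone forming tumor cells with stroma, vessels and immune cells. In such bulk samples fewer cells of a type and less RNA per cell cannot be told apart. Of 10 osteoblast and bone matrix genes measured, 7 were above the reporter level defined below, COL1A1, SPARC, RUNX2 and IBSP among them, while BGLAP, DMP1 and PHEX were not.

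Ribosomal proteins are built with ribosomal RNA into the subunits that decode mRNA and join amino acids. Most of their mRNAs begin with a 5′ terminal oligopyrimidine (TOP) tract, through which mTOR signaling sets how well they are translated, and a cell must make the proteins in matched amounts because unassembled copies are destroyed. The genes lie scattered over nearly all chromosomes, unlike the clustered operons of bacteria. Losing 1 copy of some of them causes Diamond-Blackfan anemia, and the free proteins RPL5 and RPL11 bind MDM2. No promoter or protein sequence of these genes was in the reference tables used here, so none is shown.

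The signal of the ribosomal protein genes was high and varied little between tumors. On the log2 scale of the PLIER signal, the mean over the 15 dogs was over 12 for 42 of the 51 members and over 10 for 47, on a scale where the highest mean of any probeset was 13.73. Most members thus lay close to the top of the scale, and whether differences are compressed there was not tested. Of the 51, 48 were above the reporter level of 6.79, the mean over arrays of each array's 95th percentile of the 64 control probesets for reporter sequences. The 3 at or under it were RPL37A with a mean of 3.81, RPL22 with 6.40 and RPS4X with 6.42, and their probesets give no firm level. Of the 51 probesets, 33 carry the suffix _s_at and 9 the suffix _x_at, by which the array design marks probes that can match other transcripts. Mammalian genomes hold many processed copies of these genes, so signal from near-identical copies cannot be told apart from that of the gene itself.

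The SD over the 15 dogs had a median of 0.214 on the log2 scale over all members, 0.226 for the large and 0.177 for the small subunit. Over all 42860 probesets the median SD was 0.517. Because signal and spread are linked on arrays, the 38 members at or above the lower quartile of the members' means (12.44) were also set beside the 63 other named genes at least that bright. The median SD was 0.175 for these members and 0.251 for the other genes. The members that varied least were RPS14 (SD 0.078), RPL32 (0.085), RPL9 (0.105), RPS7 (0.103) and RPS29 (0.101). RPS14, whose loss with a stretch of human 5q gives an anemia, ran from 13.22 through a median of 13.26 to 13.41 in the DFI < 100 dogs and from 13.15 through 13.33 to 13.44 in the DFI > 300 dogs. Its cohorts overlapped over nearly their whole range. The members that varied most were RPS4X (SD 0.88) and RPL22 (0.83), both under the reporter level, then RPL36 (0.63), RPL26 (0.48) and RPL37A (0.46, also under it).

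**Figure D1:**
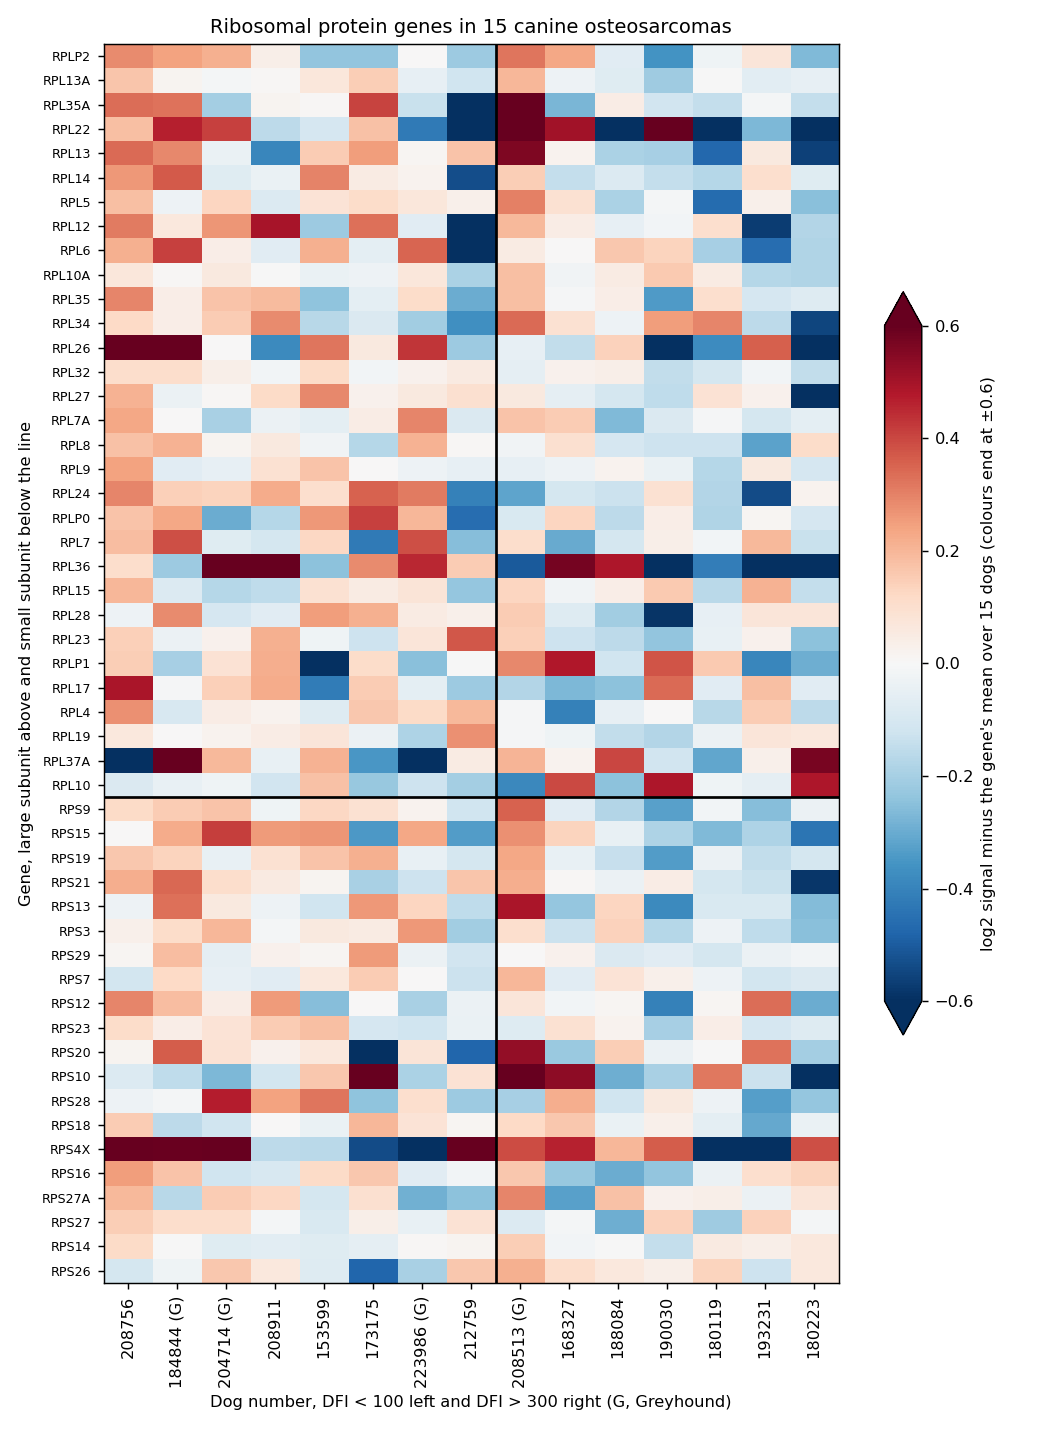
Log2 PLIER signal of each of the 51 ribosomal protein genes (rows, large subunit above the line and small subunit below it, in falling order of likeness to the mean of the other members) in each of the 15 dogs (columns, DFI < 100 left and DFI > 300 right, ordered within a cohort by the mean over all members), as the difference from the gene's own mean over the dogs. Dogs 208756 and 208513 are red in most rows and dogs 212759 and 180223 blue in most, and RPL10, with an r of -0.41 with the other members, is blue in dog 208513 and red in dog 180223.

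Averaged over all 51 members, the dogs lay between 12.01 and 12.35. The mean of the members was 12.22 ± 0.10 (SD, n = 8 dogs) in the DFI < 100 cohort and 12.13 ± 0.11 (SD, n = 7 dogs) in the DFI > 300 cohort. In the DFI < 100 dogs it ran from 12.03 through a median of 12.21 to 12.34, and in the DFI > 300 dogs from 12.01 through 12.11 to 12.35. The cohorts therefore overlapped, and the highest dog of all, 208513, was the only Greyhound of the DFI > 300 cohort. Dog 208756 of the DFI < 100 cohort had 43 of the 51 members above their own means over the 15 dogs, dog 208513 had 37, dog 212759 had 18 and dog 180223 had 11. The plot of members by dog shows these 4 dogs at the ends of the range. The mean of the 63 other bright genes ran only from 12.66 to 12.93 over the dogs and was lowest in dog 208513, where the members were highest.

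The first comparison asked whether ribosomal protein mRNA levels differed between the dogs with a short and those with a long disease free interval. No member passed an adjusted p of 0.05, in limma with Benjamini-Hochberg adjustment over 42860 probesets, where 0% of all probesets did. At an unadjusted p under 0.05, 2 of the 51 members (3.92%) were higher in the DFI < 100 cohort, against 1.83% of all probesets and 3.17% of the other bright genes, and 0 were lower, against 1.85% of all probesets. Both, RPL36 and RPL24, belong to the large subunit. Most differences were small and positive. Of the 51 members, 38 (74.5%) were higher on average in the DFI < 100 dogs, 23 of 31 in the large and 15 of 20 in the small subunit, and the median difference was 0.084 on the log2 scale, a fold of 1.06. Of the 63 other bright genes 63.5% were higher, with a median of 0.064, and of all probesets 50.9%, with a median of 0.006. The members were measured in the same dogs and are not independent of each other. The dogs' ages moved with this difference. The mean of the members had a Pearson r of -0.65 and a Spearman rho of -0.70 with age over the 15 dogs, and with age in the fit 26 of the 51 members were higher and the median difference was 0.016.

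RPL36, a small protein of the 60S subunit, had the largest difference. Its log2 signal ran from 10.75 through a median of 11.21 to 12.15 in the DFI < 100 dogs and from 10 through 10.49 to 11.57 in the DFI > 300 dogs. The cohorts overlapped because 2 DFI > 300 dogs, 168327 at 11.57 and 188084 at 11.48, lay among the DFI < 100 dogs. The difference was 0.65 ± 0.28 (SE), a fold of 1.57, with an unadjusted p of 0.0337 and an adjusted p of 0.999 in limma. RPL24, which forms one of the bridges between the subunits, ran from 12.19 through 12.78 to 12.95 in the DFI < 100 dogs and from 12.06 through 12.47 to 12.69 in the DFI > 300 dogs. In 7 of the 8 DFI < 100 dogs it was above every DFI > 300 dog, and the exception was dog 212759 at 12.19. The difference was 0.31 ± 0.14 (SE), a fold of 1.24, with an unadjusted p of 0.0407 and an adjusted p of 0.999 in limma. Neither gene passed an unadjusted 0.05 with age in the fit (0.160 and 0.151) or without the Greyhounds (0.136 and 0.195).

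Around the exit of the tunnel through which the new peptide leaves, 3 of 6 listed symbols were members. RPL31 of that list was seen only on probesets that carry several symbols. RPL26, a protein of this rim, ran from 9.95 through 10.52 to 11.08 in the DFI < 100 dogs and from 9.47 through 10.18 to 10.69 in the DFI > 300 dogs. Its difference was 0.45 ± 0.23 (SE) with an unadjusted p of 0.0635. RPL19 and RPL35 of the same rim differed by 0.07 and 0.05. Of the tunnel wall, RPL4 differed by 0.17 ± 0.11 (SE), with 13.05 to 13.42 in the DFI < 100 dogs and 12.74 to 13.30 in the DFI > 300 dogs. RPL17, the other protein of the wall, differed by 0.08, and its 2 dimmer probesets had the opposite sign, at -0.13 and -0.38.

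The stalk that recruits elongation factors is made of RPLP0, RPLP1 and RPLP2. RPLP0 was 12.58 to 13.45 (median 13.23) in the DFI < 100 dogs and 12.86 to 13.17 (median 12.95) in the DFI > 300 dogs, so all DFI > 300 dogs lay within the range of the DFI < 100 dogs. The differences were 0.09 for RPLP0, -0.14 for RPLP1 and 0.02 for RPLP2, and none had an unadjusted p under 0.05 in limma. RPL5, which carries the 5S RNA and binds MDM2, was 12.80 to 13.06 (median 12.96) in the DFI < 100 dogs and 12.42 to 13.18 (median 12.87) in the DFI > 300 dogs. The DFI > 300 dogs spanned the wider range at both ends, and the difference was 0.13 ± 0.12 (SE). RPL27, RPL23 and RPL4 came next to RPL26 by unadjusted p in limma (0.114, 0.147 and 0.153), with a difference of 0.20 for RPL27 and 0.17 for RPL23. RPL27 was decided in part by dog 180223, without which its difference was 0.12.

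**Figure D2:**
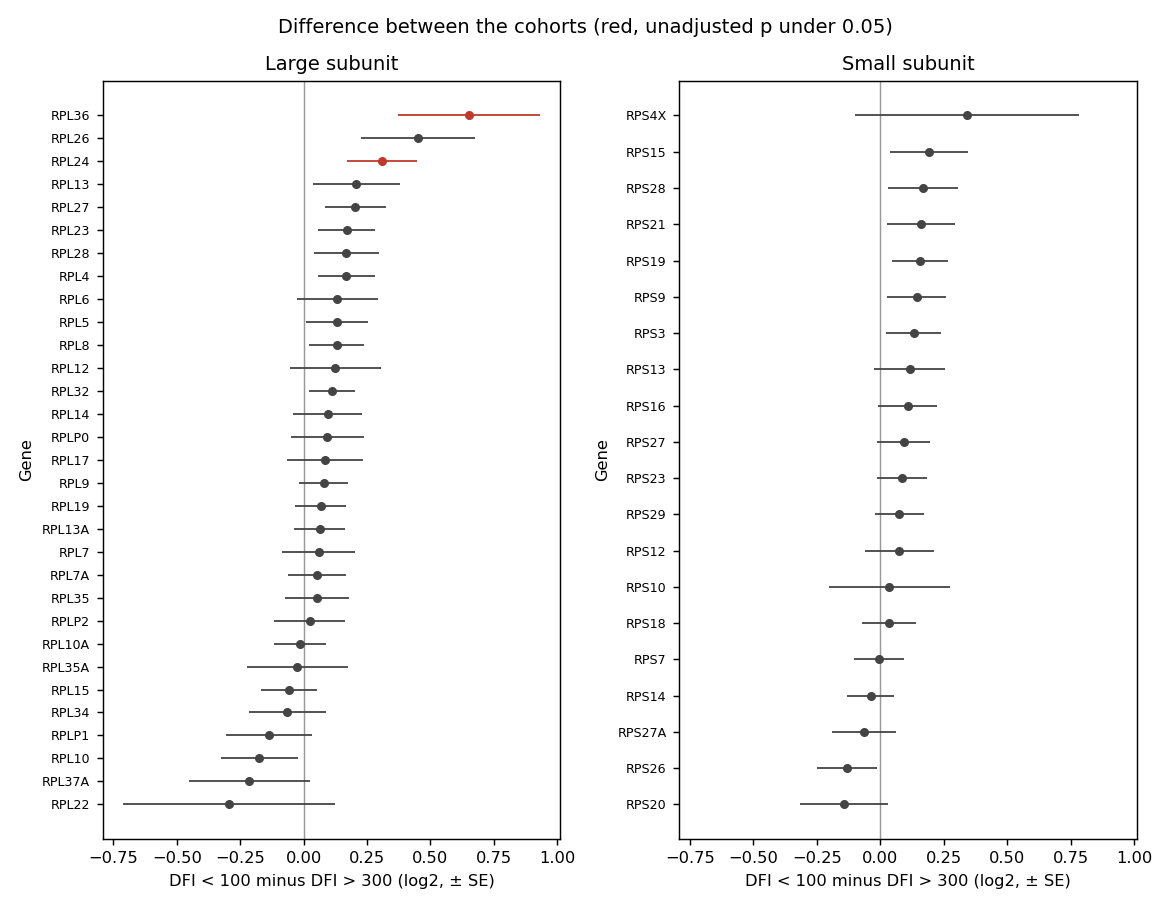
Difference of the mean log2 signal, DFI < 100 minus DFI > 300, with its SE from limma, for each of the 51 ribosomal protein genes, by subunit. Points in red are RPL36 and RPL24, with an unadjusted p under 0.05, and 38 of the 51 points lie above 0.

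In the small subunit the differences ran from -0.14 for RPS20 to 0.34 for RPS4X, and no gene had an unadjusted p under 0.05. RPS19, the gene most often lost in Diamond-Blackfan anemia, had the smallest unadjusted p there, 0.174 in limma. It ran from 12.88 through 13.10 to 13.20 in the DFI < 100 dogs and from 12.65 through 12.88 to 13.22 in the DFI > 300 dogs. In 5 of the 8 DFI < 100 dogs it was above 6 of the 7 DFI > 300 dogs, and dog 208513 was the highest of all. Around the mRNA entry and the decoding site, RPS3 differed by 0.13, RPS15 by 0.19 and RPS23 by 0.08. RPS27A, made as a fusion with ubiquitin, differed by -0.06 and RPS26, which lies at the mRNA exit, by -0.13. Of the 18 Diamond-Blackfan anemia genes listed, 13 were members, while RPL18, RPL31 and RPS24 were seen only on probesets that carry several symbols. Of the 13 members, 9 had a positive and 4 a negative difference, with a median of 0.076.

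Genes that work with the ribosome were described by lists in the same way. Of all probesets 50.9% were higher in the DFI < 100 cohort, and of the 63 other bright genes 63.5%. At an unadjusted p under 0.05 in limma, 1.83% of all probesets were higher and 1.85% lower. The lists share some genes, EEF1A1 and EEF2 among them, so their counts are not independent. Of 26 other TOP mRNAs, 21 were higher in the dogs of the DFI < 100 cohort and 5 in the others, with a median of 0.12, and 0 had an unadjusted p under 0.05. Among them EEF1A1, which brings the aminoacyl-tRNA, differed by 0.08, EEF2, which moves the ribosome along, by 0.24, PABPC1 by 0.15 and TPT1 by 0.02. Of 37 initiation factors 23 were higher and 14 lower, with a median of 0.057 and 0 under that p. Of 13 elongation and release factors 12 were higher and 1 lower, and the release factor subunit GSPT1 had a difference of 0.40 ± 0.18 (SE) with an unadjusted p of 0.0401. Of 28 ribosome biogenesis genes 23 were higher and 5 lower, with a median of 0.19. Nucleolin (NCL) had the only unadjusted p under 0.05 of that list, 0.0311, with a difference of 0.41 ± 0.17 (SE). Of 16 genes of mTOR and S6 kinase 8 were higher and 8 lower, and DEPTOR, an inhibitor in the mTOR complexes whose mean of 5.99 was under the reporter level, was lower by -1.05 ± 0.45 (SE, unadjusted p = 0.0337). The 73 mitochondrial ribosomal protein genes, which serve the separate ribosome of that organelle, were higher in 54 and lower in 19, with a median of 0.14. At an unadjusted p under 0.05, 4 were higher, where 1.83% of all probesets were, and their adjusted p in limma were 0.999. Of 16 cell cycle genes 13 were higher and 3 lower, with a median of 0.30. Of these the replication helicase genes MCM6 (0.56 ± 0.17, SE) and MCM2 (1.02 ± 0.31, SE) had an unadjusted p under 0.05, with an adjusted p of 0.999 in limma. At that unadjusted p 1.83% of all probesets were higher. The other MCM genes of the list did not go the same way, with MCM3 at 0.15, MCM7 at 0.14, MCM5 at -0.10 and MCM4 at -0.33. Of the cell type lists, T and NK cell genes held 2 higher and 1 lower at that unadjusted p, B and plasma cell genes 2 higher and skeletal muscle genes 1 higher, all 6 under the reporter level. RACK1 and FAU, ribosomal proteins outside the naming rule, differed by 0.21 and 0.04. Of the 7 measured paralogs whose symbols end in L, 4 were higher and 3 lower.

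Breed was examined beside cohort because Greyhounds were the one pure breed with more than 2 dogs. With cohort in the fit, no member passed an adjusted p of 0.05 in limma, where 0% of all probesets did. Of the 51 members 4 (7.84%) were higher in the 4 Greyhounds at an unadjusted p under 0.05, against 1.9% of all probesets, and 0 were lower, against 2.84%. In all, 42 members (82.4%) were higher, 24 of 31 in the large and 18 of 20 in the small subunit, with a median difference of 0.089, while 47.6% of the other bright genes and 46.3% of all probesets were. The mean of the members was 12.16, 12.27, 12.31 and 12.35 in the Greyhounds and ran from 12.01 through 12.13 to 12.34 in the other 11 dogs. By list of markers, the median Greyhound difference was 0.98 for cartilage, -0.74 for osteoclast, -0.46 for endothelial and -0.35 for macrophage genes. It was 0.28 for cell cycle, 0.17 for osteoblast, 0.02 for B and plasma cell, -0.03 for T and NK cell and -0.04 for skeletal muscle genes. Only 3 of 7 cartilage and 4 of 6 osteoclast genes were above the reporter level. These medians carry no test, and the part of such cells in the members' values was not tested. Without dog 208513 29 of the 51 members were higher and the median was 0.014. The Greyhounds were also younger, at 6.63 ± 1.55 years (SD, n = 4) against 9.92 ± 2.33 years (SD, n = 11), and with age in the fit 32 members were higher and the median was 0.041.

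RPS20, a protein of the head of the 40S subunit, had the smallest unadjusted p among the breed differences. It was 13.70 in dog 184844, 13.42 in dog 204714, 13.86 in dog 208513 and 13.41 in dog 223986, and ran from 12.65 through 13.33 to 13.66 in the other breeds. The lowest Greyhound was above the median of the others but under their highest dog. The difference was 0.43 ± 0.17 (SE), a fold of 1.35, with an unadjusted p of 0.0272 and an adjusted p of 0.968 in limma. Without dog 208513 the unadjusted p was 0.0983. RPS20 has 8 probesets, and all 8 were higher in the Greyhounds, by 0.40 to 2.18. By the mean of the probeset, the difference was 0.43 at 13.33, 0.56 at 12.70, 0.62 at 12.53, 0.40 at 12.49 and 0.97 at 10.85. The part of brightness in this was not tested. In a dim one with a mean of 6.90 the 4 Greyhounds were at 7.97, 8.11, 9.75 and 7.99 and the other 11 dogs at 5.43 to 7.33 (median 6.50). The groups did not overlap on that probeset, but the median of the other dogs was under the reporter level of 6.79, so no fold is given. It was picked from the 8 after its values were seen. Between the cohorts the same probeset differed by 0.33 and the brightest by -0.14.

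RPS13, which takes part in a bridge between the subunits, was 13.35, 13.08, 13.51 and 13.15 in Greyhounds 184844, 204714, 208513 and 223986 and ran from 12.64 through 12.93 to 13.28 in the other dogs. All 4 Greyhounds were above the median of the others, and 2 were above their highest dog. The difference from the other breeds was 0.33 ± 0.15 (SE), with an unadjusted p of 0.0399 in limma that became 0.281 without dog 208513. RPS15, at the decoding site, was 12.93, 13.12, 12.98 and 12.94 in the same order of dogs and ran from 12.27 through 12.52 to 12.97 in the others. It differed by 0.36 ± 0.16 (SE, unadjusted p = 0.0426, and 0.129 without that dog). RPL22, under the reporter level, was 6.87, 6.82, 8.45 and 5.98 in the same order of dogs. Its difference of 1.01 ± 0.43 (SE, unadjusted p = 0.0331) fell to 0.46 without dog 208513.

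Across the 15 tumors the members went together loosely. Over the 1275 pairs of members the median Pearson r was 0.198 and 73.2% were positive, against a median of 0.019 over the 1953 pairs of the 63 other bright genes. That set holds translation genes too, EEF1A1, TPT1, RACK1 and PABPC1 among them. Over the 29 members that have a probeset without the suffixes _s_at and _x_at, the median on those probesets was 0.095. Some of those probesets lie under the reporter level, RPL23 at 1.61, RPL9 at 5.53 and RPS19 at 6.17 among them. By subunit the medians were close. The median r was 0.203 within the large subunit, 0.205 within the small and 0.193 between them. Of the 51 members 47 had a positive r with the mean of the other 50, with a median of 0.380. The highest were RPS9 (0.74), RPLP2 (0.71) and RPL13A (0.71), and the lowest RPL10 (-0.41), RPL37A (-0.12), RPL19 (-0.11), RPS26 (-0.09) and RPL4 (0.07).

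The genes nearest to the members in pattern were taken from 6400 named non-members above the reporter level, by Pearson r with the mean of the members over the 15 dogs. The first 10 were ACAT1 (0.88), RTRAF (0.85), TEX10 (0.79), EIF3H (0.78), MNAT1, TIMM9, YARS1, ASAP1, FBXO8 and SLC13A2 (0.74). EIF3H, a subunit of initiation factor 3, is the one that is also on the list of TOP mRNAs. The mean of the other TOP mRNAs had an r of 0.63 with the members (rho 0.63, and 0.68 without the 2 dogs farthest from the median), and elongation factors one of 0.52. Of the cell type lists, cartilage had an r of 0.66 with the members (rho 0.65, and 0.68 without its 2 farthest dogs). Its mean ran from 5.00 to 8.47 in the DFI < 100 dogs and from 3.26 to 8.05 in the DFI > 300 dogs, with 3 of 7 genes (ACAN, COMP and HAPLN1) above the reporter level and SOX9 under it. By gene the r with the members was 0.67 for HAPLN1, 0.53 for COL2A1, 0.50 for COL9A1 and 0.40 for COMP. It was 0.34 for SOX9, 0.21 for ACAN and 0.08 for MATN3. COL2A1 and HAPLN1 had the largest SD of the list, 4.8 and 3.0, and so weigh most in its mean. The part of cartilage in the members' values was not tested. Osteoclast genes (4 of 6 above the reporter level) had an r of -0.48, and 0.06 without their 2 farthest dogs. Skeletal muscle genes (only 1 of 9 above it) had one of -0.50, and -0.45 without their 2 farthest dogs. Macrophage genes (8 of 9 above the reporter level) had one of -0.44, and -0.19 without their 2 farthest dogs. In the same way endothelial genes (6 of 9) had -0.29 and -0.28, T and NK cell genes (1 of 14) -0.03 and 0.24, and B and plasma cell genes (0 of 7) 0.40 and 0.12. Cell cycle genes (16 of 16) had 0.28 and 0.35, and osteoblast genes (7 of 10) 0.10 and 0.41. The list means of the osteoblast genes ran from 8.71 to 10.91 in the DFI < 100 dogs and from 9.14 to 10.30 in the DFI > 300 dogs.

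Position on the chromosome went with likeness more clearly than subunit did. Of the members 50 could be placed with the RefSeq table, 40 of them with another member on the same chromosome. The files name no genome build, so the table was used only for which genes neighbour each other. The 51 pairs on 1 chromosome had a median r of 0.448 and 90.2% were positive, and the 1174 pairs on different chromosomes had a median of 0.196. For the 28 pairs at most 20 Mb apart the median was 0.614, with all but RPL4 and RPLP1 positive. Many of the 28 are pairs among RPL28, RPS9, RPL13A, RPS19 and RPS16 of 1 chromosome (r from 0.55 to 0.94), so they are not independent. For the 23 pairs farther apart on 1 chromosome the median was 0.252. On probesets without the 2 suffixes, some of them under the reporter level, the median was 0.283 on 1 chromosome and 0.107 on different ones. Within the DFI < 100 dogs alone the medians were 0.531 for pairs within 20 Mb and 0.143 for different chromosomes, and within the DFI > 300 dogs 0.591 and 0.208. Without the Greyhounds they were 0.645 and 0.178. The same order held for named non-members above the reporter level, with medians of 0.161 within 20 Mb and 0.007 on different chromosomes, so a rise with nearness is not particular to ribosomal proteins in these tumors.

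**Figure D3:**
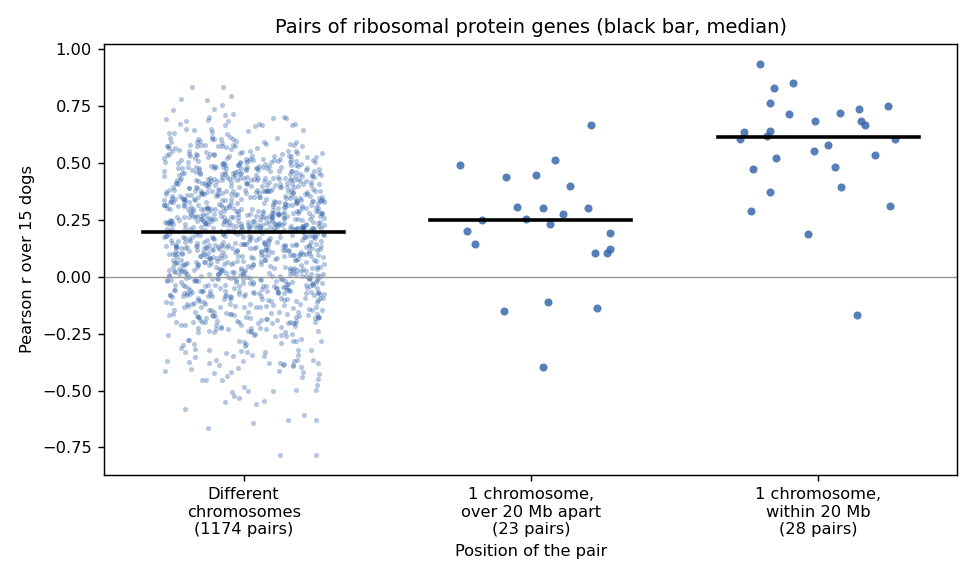
Pearson r over the 15 dogs for each pair of ribosomal protein genes that could be placed (points), by whether the 2 genes lie on different chromosomes, more than 20 Mb apart on 1 chromosome or within 20 Mb. The median (black bar) is 0.196, 0.252 and 0.614 in turn, and only 1 of the 28 pairs within 20 Mb is below 0.

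RPS12, RPL28, RPS9, RPL13A, RPS19 and RPS16 lie on 1 chromosome, with RPS12 more than 20 Mb from the others, and had a median r of 0.64 over 15 pairs. RPL13A, which can leave the 60S subunit to silence mRNAs of inflammation, and RPS19 gave the highest r of all pairs. It was 0.938 (rho 0.964) with a permutation p of 1e-05, the smallest the 100000 permutations can give, and 0.0128 adjusted over 1275 pairs. Without the 2 dogs farthest from the median of RPL13A it was 0.893, and it was 0.901 within the DFI < 100 and 0.994 within the DFI > 300 dogs. Both genes were highest in dog 208513, at 13.02 and 13.22, and lowest in dog 190030, at 12.61 and 12.65. RPS19 and RPS9 had an r of 0.853 (adjusted p = 0.0383 by permutation, and 0.0850 for rho), but their probesets share a cluster number in their names. The third pair past an adjusted 0.05, RPL13 and RPL5, lies on 2 different chromosomes, with an r of 0.834 (adjusted p = 0.0383 by permutation) and a rho of 0.725 whose adjusted p was 0.269. In all 3 of 1275 pairs of members passed in Pearson's r, and 5 of 1953 among the other bright genes with as many permutations.

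At an unadjusted permutation p under 0.05, 10.4% of the pairs of members were positive and 1.02% negative, against 5.43% and 3.89% of the pairs of other bright genes. Of the pairs within 20 Mb 71.4% were positive at that level and of those on different chromosomes 9.28%. RPL7 and RPS20, on 1 chromosome, had an r of 0.765 (rho 0.711, adjusted p = 0.0956 by permutation), 0.858 within the DFI < 100 and 0.783 within the DFI > 300 dogs. Both were lowest in dog 173175, where RPL7 was 12.56 and RPS20 12.65. RPS3 and RPS13 had an r of 0.716 (adjusted p = 0.186 by permutation). RPL32, RPS28, RPL36 and RPS15, on 1 chromosome, had a median r of 0.52 over 6 pairs. RPL27, RPL19, RPL23, RPL7A, RPL12 and RPL35 shared a chromosome too but had a median of 0.23. The most negative pairs were RPLP0 with RPS26 at -0.784 (adjusted p = 0.0619 by permutation) and RPL10 with RPS13 at -0.782 (adjusted p = 0.0956 by permutation). The second was -0.245 within the DFI < 100 and -0.910 within the DFI > 300 dogs. RPL10 was 12.81, 12.90 and 12.90 in dogs 168327, 180223 and 190030, where RPS13 was 12.79, 12.76 and 12.64, and was lowest in dog 208513 at 12.03, where RPS13 was highest at 13.51.

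**Figure D4:**
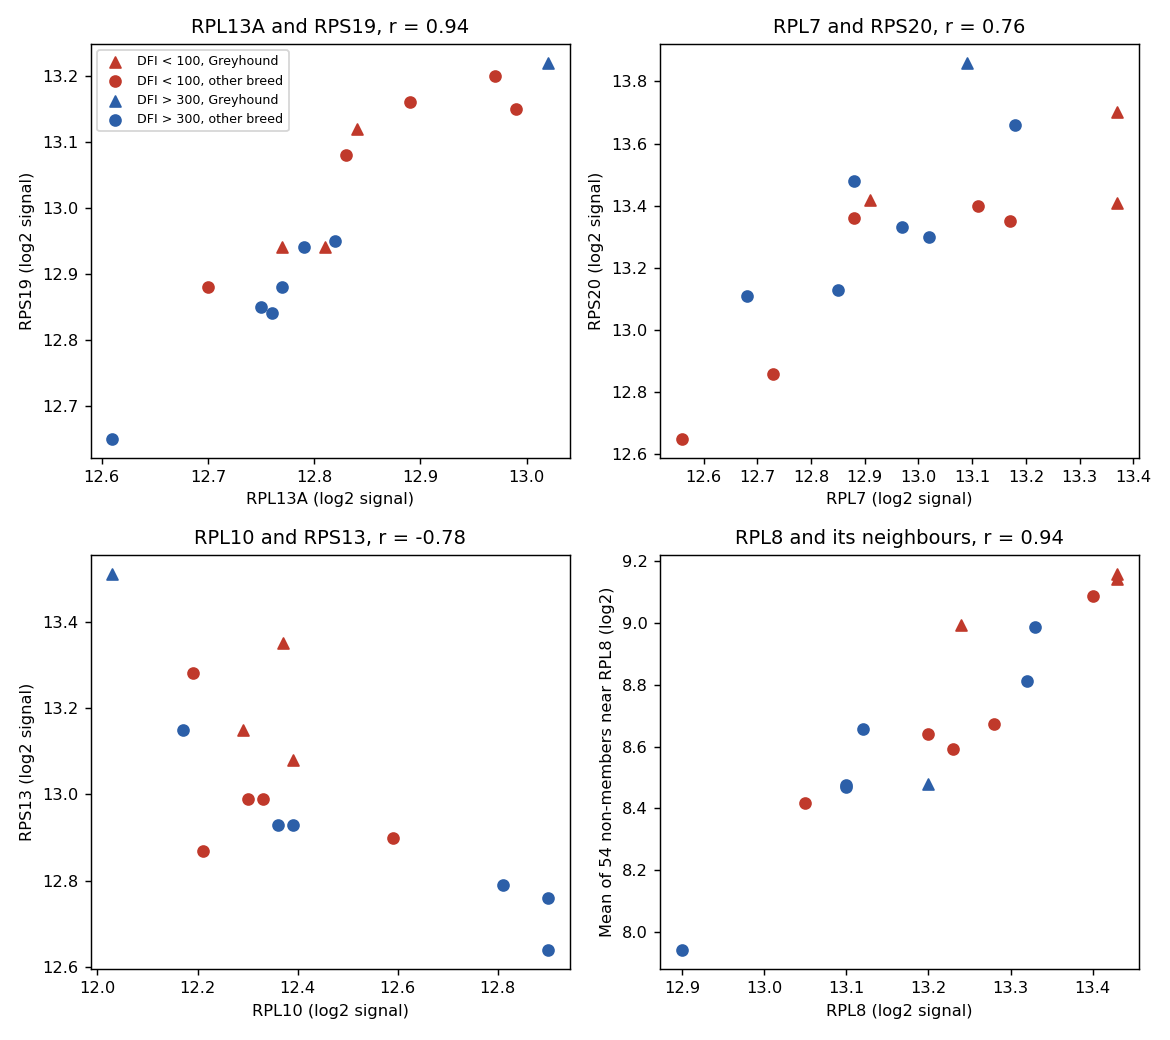
Log2 signal of RPL13A and RPS19, RPL7 and RPS20, and RPL10 and RPS13, and of RPL8 against the mean of 54 named genes within 10 Mb of it, 1 point for each of the 15 dogs (red, DFI < 100, and blue, DFI > 300, with triangles for Greyhounds). The Pearson r is 0.938, 0.765, -0.782 and 0.938, and dogs of both cohorts lie at the low and the high end for RPL13A and RPS19.

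The members also went with unrelated genes beside them. For each placed member the median r with named non-members above the reporter level within 10 Mb (23 to 164 genes) was set beside that with non-members on other chromosomes. Over the 50 members these had a median of 0.253 near and 0.019 elsewhere, and the near value was the higher in 49, RPS4X being the exception (-0.07 and 0.001). Of 6392 non-members 87.5% had the higher value near, with medians of 0.210 and 0.010, and of the 63 other bright genes 76.2%. Genes beside each other are not independent, so these counts are a description.

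RPL8, near the peptidyl transferase centre, had the highest value, a median r of 0.675 over 54 neighbours, of which 70.4% were over 0.5 against 3.05% elsewhere. Its 5 nearest measured neighbours were ZNF517 (r = 0.90), ZNF7 (0.77), COMMD5 (0.84), C13H8orf33 (0.87) and CHRNB4 (0.20), which are not ribosomal proteins. The mean of the 54 neighbours had an r of 0.938 with RPL8 (rho 0.954, and 0.880 without its 2 farthest dogs), and both were lowest in dog 193231 and highest in dog 223986. RPS20 was alike, with a median of 0.670 over 31 neighbours, 77.4% of them over 0.5, and an r of 0.941 with their mean. It and its neighbours were lowest in dog 173175 and highest in dog 208513. Of its 5 nearest neighbours CHCHD7 and TGS1 had an r of 0.86, SDR16C5 0.56, LYN 0.51 and PENK 0.42.

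RPL10, which joins the 60S subunit late in its assembly, had a median r of 0.572 with 32 neighbours. Its r was 0.865 with their mean and -0.41 with the mean of the other members over all dogs. In the DFI < 100 dogs its r was 0.32 with RPS3, 0.26 with RPS19 and 0.53 with RPL27. In the DFI > 300 dogs these were -0.87, -0.62 and -0.62. With RPL4, RPS12 and RPL23 it was negative in both cohorts, at -0.66, -0.31 and -0.34 and then -0.44, -0.70 and -0.78. RPL10 had an SD of 0.12 in the DFI < 100 and 0.36 in the DFI > 300 dogs. Its 5 nearest neighbours were DNASE1L1 (0.67), TAZ (0.76), ATP6AP1 (0.60), FLNA (0.74), which links actin filaments, and EMD (0.58). By the sex given in the paper, RPL10 ran from 12.30 to 12.90 in the spayed females. In the castrated males it ran from 12.03 to 12.37, except for dog 190030 at 12.90. The part of sex in these values was not tested. RPL26 had a median of 0.564 over 93 neighbours, and its 5 nearest were NDEL1 (0.71), RANGRF (0.63), CTC1 (0.38), AURKB (0.76), a kinase of mitosis, and PER1 (0.40). RPS26 had 0.542 over 50 neighbours, and its 5 nearest ran from -0.53 for PMEL to 0.70 for DGKA. RPL7 had 0.525 over 29 neighbours, and its 5 nearest ran from -0.06 for LY96 to 0.74 for ELOC. In the plot of likeness to neighbours these 6 genes stand at the top. The 6 were taken because their values were the highest, so these numbers carry no test.

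**Figure D5:**
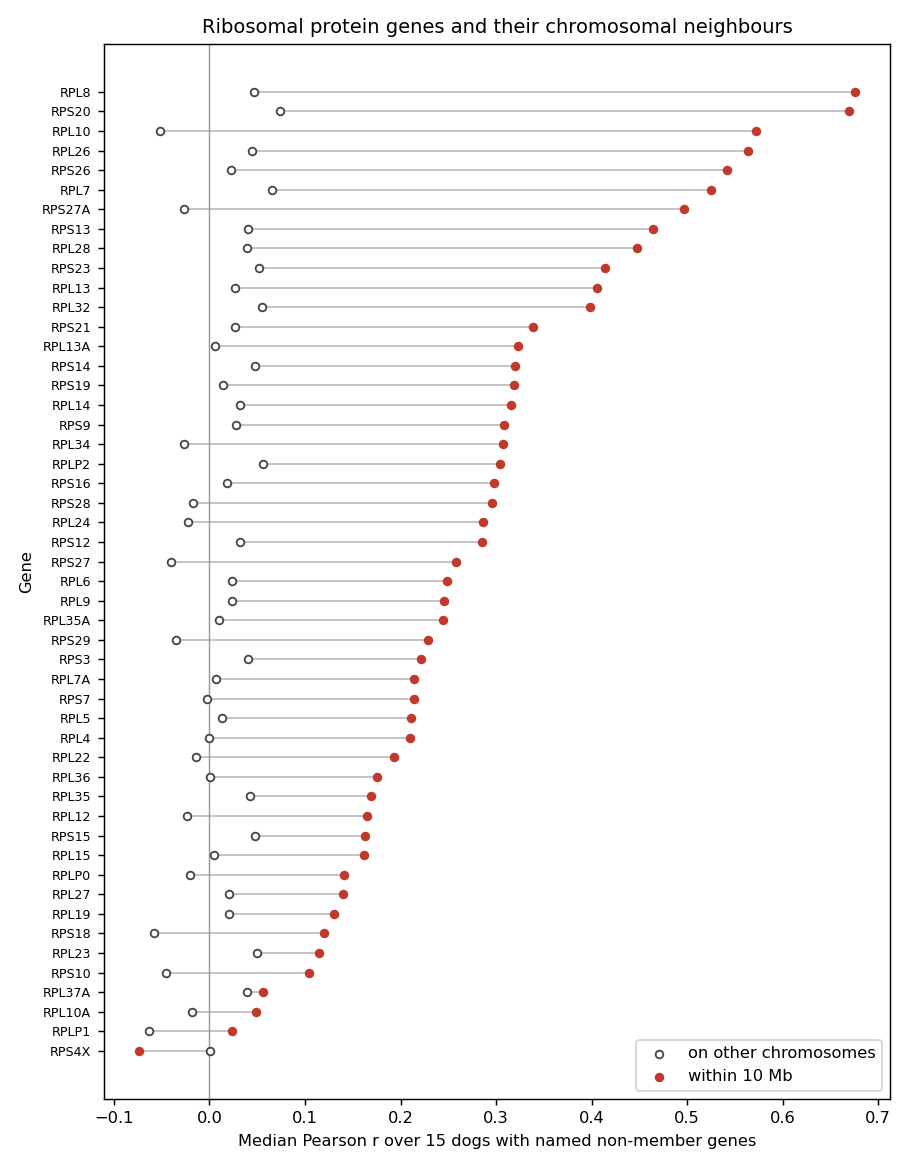
Median Pearson r over the 15 dogs of each of 50 ribosomal protein genes with named non-member genes within 10 Mb on its chromosome (red) and with those on other chromosomes (open). The red point lies right of the open one for 49 genes, and RPL8 and RPS20 have the highest near values, 0.675 and 0.670.

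Of the 51 members 26 have more than 1 probeset of their own, 54 further probesets in all. Those above the reporter level, 37, had a median r of 0.824 with the brightest probeset of their gene, and 28 had its sign between the cohorts. In RPL34 the 3 other probesets above that level had an r of only 0.02 to 0.07 with the brightest, and in RPL17 the 2 others had one of 0.23 and 0.24. Those of RPL34 differed between the cohorts by 0.37 to 0.46, against -0.06 for the brightest.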

How the data were processed

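Total RNA of 15 primary tumors was hybridised by the authors to 1 array each. They summarised probes with PLIER in Affymetrix Expression Console according to the submitters' processing notes, which name no version, and the deposited values are linear intensities, 1 per probeset and array. How arrays were scaled before PLIER is not stated. The arrays were run in batches, but no source used here says which dog was in which, so no value within a batch can be had. RMA and qRT-PCR values were not analysed here.

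After leaving out 175 control probesets of 43035, log2 was taken with no offset. Cohorts, and Greyhounds with cohort as covariate, were compared by limma (3.58.1, under R 4.3.3) with Benjamini-Hochberg adjustment over 42860 probesets. Precision is limited by the number of arrays. Likeness was Pearson's r over the dogs, and each pair of members was tested by 2-sided permutation of the dogs (Python 3.11.15, numpy 2.4.6). Members, lists and comparisons were chosen with earlier results of these data known. The genes named were, by rule, those with the smallest p per subunit and for breed, the largest and smallest SD, the members of the role lists, those under the reporter level, those most and least like the other members, and, of the translation, mTOR and biogenesis lists, the genes with an unadjusted p under 0.05. Some genes taken by the rule are only plotted or counted. Genes beside RPL8, RPS20, RPL10, RPL26, RPS26 and RPL7, and MCM2 and MCM6, were added after their values were seen.

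The comparison was tested on simulated data with 100 probesets of each size among 42860. These were drawn from probesets with a mean log2 signal over 10 and were not matched to the spread of the members. At an adjusted p of 0.05 the comparison called 0% of differences of 0.5 and 21% of those of 1 on the log2 scale. At an unadjusted 0.05 it called 61% and 99%. The rates for the members themselves were not simulated. The median of the ratio of 3′ to 5′ control probes (log2) was 2.11 in the DFI < 100 and 2.21 in the DFI > 300 dogs. The alternatives tried were the t-test of the methods, limma with trend and robust variance, 16 added before log2, quantile normalization, centring on all or on bright probesets, only probesets above the reporter level, array weights, age or the 3′ to 5′ ratio as covariate, no Greyhounds, osteoblastic tumors only, each dog left out, averaging a gene's probesets and using only probesets without _s_at or _x_at. The comparisons by 20 Mb, by neighbours within 10 Mb and within cohorts, and the permutation test of pairs, were added after seeing the data. The result of 1 of the gene lists is not reported here.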

Additional observations from a re-analysis of the deposited data

Results flagged for a closer look

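Values of single dogs that lay apart from the rest of their cohort were looked for in the mean of the members and in each named member, over 70 groups of dogs in all. Chance alone marks about 1 group in 20, and 5 of the 70 were marked. Dog 212759 of the DFI < 100 cohort was low in the mean of the large subunit members, at 11.82 against 12.03 to 12.20 in the other 7 dogs, in RPL24, at 12.19 against 12.70 to 12.95, and in RPL22, at 4.76 against 5.98 to 6.87. Dog 180223 of the DFI > 300 cohort was low in RPL27, at 11.71 against 12.18 to 12.42. Dog 208756 of the DFI < 100 cohort was high in RPS14, at 13.41 against 13.22 to 13.31. Without dog 212759 the difference of RPL24 between the cohorts was 0.39 (unadjusted p = 0.00626 in limma), and without dog 180223 that of RPL27 was 0.12.

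Outside the 51 members, all 10 ribosomal protein genes seen only on probesets with several symbols gave signal above the reporter level. Their means ran from 11.66 for RPL30 to 13.42 for RPS24, and their differences between the cohorts from -0.02 for RPL31 and RPSA to 0.33 for RPL30, with no unadjusted p under 0.14 in limma.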

How the results depend on the processing

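No paired analysis was possible because each dog has a number of its own and the cohorts share none. Over the members named and all alternatives, the lowest adjusted p in limma or the t-test was 0.951 between the cohorts and 0.857 for Greyhounds. The number of members higher in the DFI < 100 cohort at an unadjusted p under 0.05, 2 as reported, was 5 by the methods' t-test, 1 after quantile normalization, 1 after centring on bright probesets, 1 among probesets above the reporter level, 1 with the 3′ to 5′ ratio as covariate, 0 with age as covariate, 0 without Greyhounds and 0 to 3 with each dog left out. Without Greyhounds 2 of all probesets passed an adjusted 0.05. Without _s_at and _x_at probesets, which leaves 29 members, 20 were higher. Some of those 29 are then read on probesets under the reporter level. For Greyhounds the number at an unadjusted p under 0.05, 4 as reported, was 7 by the t-test, 2 after bright centring, 1 above the reporter level, 0 with array weights, 1 with age, 2 with the 3′ to 5′ ratio, 2 in osteoblastic tumors and 0 to 4 with each dog left out. For that comparison 1 of all probesets passed an adjusted 0.05 in osteoblastic tumors, and 0 to 2 with each dog left out. Members higher numbered 21 of 29 without _s_at and _x_at probesets and 29 to 43 with each dog left out.

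These differences between the cohorts changed sign. With age as covariate RPS29 was at -0.0018, RPLP0 at -0.020, RPLP2 at -0.10, RPL13A at -0.0053 and RPS13 at -0.092. Without Greyhounds RPS7 was at 0.013, RPLP2 at -0.0059 and RPS27A at 0.021, and RPS7 was at 0.018 after median centring and 0.018 in osteoblastic tumors. With the mean of all probesets RPL23 was at -0.20 and RPL17 at -0.14. Without _s_at and _x_at probesets RPL23 was at -0.57, RPL17 at -0.13, RPS14 at 0.015 and RPS20 at 0.33. The probeset of RPL23 without these suffixes has a mean of 1.61, under the reporter level. With each dog left out RPS7 ran from -0.026 to 0.029, RPLP2 from -0.034 to 0.079 and RPL22 from -0.43 to 0.021.

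Likeness also moved. Without _s_at and _x_at probesets the median r was 0.095 over all pairs, 0.079 within the large and 0.081 within the small subunit, 0.283 on 1 chromosome and 0.107 on different ones, and with non-members it was 0.160 within 10 Mb and -0.002 elsewhere, the former the higher in 24 of the members that were left. After bright centring it was 0.279 over all pairs, 0.276 within the large subunit and 0.277 on different chromosomes. With the mean of all probesets it was 0.521 within 20 Mb. In the DFI < 100 dogs alone it was 0.083 within the small subunit, 0.305 on 1 chromosome and 0.531 within 20 Mb, and in the DFI > 300 dogs 0.325 within the small subunit. With each dog left out the median ran from 0.154 to 0.218 over all pairs, 0.145 to 0.224 within the large and 0.110 to 0.222 within the small subunit, 0.366 to 0.506 on 1 chromosome, 0.157 to 0.216 on different chromosomes and 0.586 to 0.660 within 20 Mb. With non-members it ran from 0.225 to 0.280 near and 0.0043 to 0.024 elsewhere. The cause of these shifts was not tested.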
